A study of Mus musculus with 12 samples.

Results

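The expression of 10 genes of the epithelial-mesenchymal transition (EMT) was followed in mouse bone marrow stromal cells and in sarcomas of p53 knockout mice. They are the transcription factors Twist1, Twist2, Snai1, Snai2, Zeb1, Zeb2 and Tcf4 and the structural genes Cdh1, Cdh2 and Vim. The genes were listed by name, with earlier results of these data known, out of 24421 genes in the deposited table. All 10 were present, and all 10 were among the 18948 genes tested.

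EMT is the process by which epithelial cells loosen their junctions and take on the form and motility of mesenchymal cells. The Snail, Zeb and Twist factors bind E-boxes, short DNA elements, and repress the gene of the epithelial adhesion protein E-cadherin (Cdh1). Cells that have passed through EMT typically carry N-cadherin (Cdh2) and the intermediate filament vimentin (Vim) instead. Stromal cells and sarcomas are mesenchymal from the outset, and these genes, apart from Cdh1, are part of the normal expression of that lineage.

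The 12 libraries were of bulk RNA and comprised 3 groups, all described as freshly isolated. The WT MSC group held 3 libraries of sorted mesenchymal stem cells (MSCs) of mice wild type for p53, and the KO MSC group held 3 libraries of such cells from p53 knockout mice. The bone marrow sort took cells that carry LepR and CD140a and lack the blood cell, red cell and endothelial markers CD45, Ter119 and CD31. The KO tumor group held 6 libraries of sarcomas derived from bone or bone marrow of p53 knockout mice. Tumors were extracted with TRIzol. The protocols describe no sorting step for them, although the labels give their cell type as tumor cell. The p53 allele, any Cre driver, the animals' age and whether libraries came from separate animals are not stated in the labels. The p-values below thus rest on the spread among these 12 libraries alone, and that spread may be technical.

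The Snail, Zeb and Twist factors act through E-boxes of their target genes. The target Cdh1 had no entry in the promoter table, and the promoter sequences of 3 of the factors themselves are shown. Each is the 250 bases before the RefSeq start of the gene (GRCm38.p6), 5′ to 3′ on the strand of the gene. Capitals mark every E-box (CANNTG) and every TATAA element, searched on both strands.
Twist1, chr12:33957421-33957670, + strand: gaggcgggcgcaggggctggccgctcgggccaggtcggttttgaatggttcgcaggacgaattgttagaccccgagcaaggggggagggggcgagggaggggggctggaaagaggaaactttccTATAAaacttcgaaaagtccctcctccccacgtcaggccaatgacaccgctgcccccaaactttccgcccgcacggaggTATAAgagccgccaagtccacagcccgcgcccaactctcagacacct
Twist2, chr1:91801211-91801460, + strand: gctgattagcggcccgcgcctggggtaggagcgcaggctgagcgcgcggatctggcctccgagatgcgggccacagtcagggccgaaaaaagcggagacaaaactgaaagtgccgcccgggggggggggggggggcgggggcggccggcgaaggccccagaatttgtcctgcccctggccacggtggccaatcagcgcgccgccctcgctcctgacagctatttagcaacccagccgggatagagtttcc
Snai1, chr2:167537945-167538194, + strand: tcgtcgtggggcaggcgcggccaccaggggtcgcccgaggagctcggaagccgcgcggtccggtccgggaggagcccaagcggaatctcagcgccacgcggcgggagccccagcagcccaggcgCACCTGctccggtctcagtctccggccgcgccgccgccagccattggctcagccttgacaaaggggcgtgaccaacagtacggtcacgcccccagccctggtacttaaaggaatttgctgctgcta
The Snai1 window held 1 E-box, CACCTG, which starts 126 bases before the start of the gene. The windows of Twist1 and Twist2 held none. The Twist1 window held 2 TATAA elements, which start 126 and 47 bases before the start. Among 32851 mouse promoter windows of the same length, 66.2% held a CANNTG element, 17.2% held CACCTG or its reverse CAGGTG, which is contained in the former, and 22.8% held TATAA or its reverse TTATA. A match describes these letters only. The GC content was 62.4% for Twist1, 68.8% for Twist2 and 70% for Snai1. Of the 10 genes, 5 had an entry in the promoter table: these 3, Vim and Zeb2.

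Positions in the genome (GRCm38, GENCODE M21) are given for part of the genes. Those of Zeb1, Tcf4 and Cdh2 are not given here. Twist1 spans chr12:33957671-33959829 and Twist2 spans chr1:91801461-91848028, both on the + strand. Snai1 spans chr2:167538195-167542814 and Vim chr2:13573927-13582826, both on the + strand, while Zeb2 spans chr2:44983632-45117395 on the - strand. Snai2 spans chr16:14705852-14709385 and Cdh1 chr8:106603351-106670246, both on the + strand. The library kit does not mark strand, so reads of a gene and of an exon on the other strand cannot be told apart. Such exon overlaps existed for Twist2 with Gm29100 over 1477 bases, for Zeb1 with Gm10125 over 198 bases and for Zeb2 with Zeb2os over 653 bases.

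The values are stabilized log2 values, on which a difference of 1 is 2-fold for well-expressed genes. Genes with few reads flatten to a floor, so the changes of low genes are understated. The values carry no read counts, and the depth of each library is unknown. Values that libraries share exactly divide them into 2 batches, which the labels do not name. Batch 1 held WT MSC 1, the library labelled KO MSC 1 and tumors 1 to 3, and batch 2 held the others. The deposited table is titled as already batch-adjusted. Trp53, the targeted gene, was at 9.96, 10.04 and 10.61 in WT MSC. It was at 10.49, 9.76 and 6.96 in the libraries labelled KO MSC 1, 2 and 3 and between 6.79 and 9.16 in tumors. In the libraries labelled KO MSC 1 and 2 its level was thus that of wild-type cells. With the allele unknown, reads outside a deleted stretch cannot be told from an intact gene. The library labelled KO MSC 1 and WT MSC 1 stood apart in the number of genes at the floor, 2632 and 3730 against 9251 to 12336 in the other 10. The library labelled KO MSC 3 had the most, and it held the ribosomal RNA precursor Rn45s at 19.75 against 13.35 to 17.92 in the others. Results that rest on KO MSC are given below also without single libraries where a call changes. Lepr, the receptor used in the sort, was at 14.56 to 15.60 in WT MSC, 11.63 to 14.12 in KO MSC and 4.10 to 8.93 in tumors.

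Twist1, a basic helix-loop-helix factor of mesoderm and of early osteogenic progenitors, was higher in the tumors than in either group of stromal cells. Its level was 6.88, 6.97 and 7.24 in WT MSC 1 to 3. It was 5.91, 6.98 and 6.20 in the libraries labelled KO MSC 1 to 3. In tumors it ran from 7.50 over a median of 8.26 to 8.66. Every tumor lay above every MSC library, and the lowest tumor was tumor 3. The difference of means was 1.85 ± 0.41 (SE; 3 KO MSC and 6 tumor libraries) against KO MSC, a 3.60-fold difference with a limma adjusted p of 0.0285. Against WT MSC it was 1.18 ± 0.31, or 2.27-fold, with a limma adjusted p of 0.0231.

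Twist2, the close relative of Twist1, divided the tumors. It was at 7.42, 6.81 and 7.17 in WT MSC and at 6.73, 6.54 and 8.21 in the libraries labelled KO MSC 1 to 3. In tumors 1 to 6 it was at 5.43, 11.29, 5.66, 8.72, 8.70 and 5.62. Tumors 2, 4 and 5 lay above every MSC library and tumors 1, 3 and 6 below every one. Each set of 3 tumors held libraries of both batches. The tumor mean was within 0.41 ± 1.19 of KO MSC and 0.44 ± 1.18 of WT MSC, and neither difference passed the test (limma adjusted p of 0.857 and 0.814). The SD over tumors was 2.39, against 0.31 over WT MSC and 0.91 over KO MSC, and 99.3% of tested genes had a lower SD over tumors.

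Snai1, the zinc finger factor Snail, is a direct repressor of Cdh1. It was at 7.15, 7.37 and 7.66 in WT MSC and at 6.54, 7.15 and 7.32 in the libraries labelled KO MSC 1 to 3. Tumors ran from 6.05 in tumor 5 over a median of 7.59 to 9.19 in tumor 4. The tumors thus lay on both sides of the stromal cells, and the groups overlapped in every comparison. The tumor difference was 0.56 ± 0.61 against KO MSC, with a 95% interval from -0.78 to 1.90, and 0.17 ± 0.57 against WT MSC, with an interval from -1.10 to 1.43. Neither passed the test (limma adjusted p of 0.590 and 0.856).

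Snai2, or Slug, the Snail relative of neural crest and mesenchyme, was lower in the tumors than in wild-type stromal cells. It was at 11.46, 11.60 and 11.16 in WT MSC. In the libraries labelled KO MSC 1 to 3 it was at 10.24, 10.51 and 9.15. In tumors it ran from 8.79 over a median of 9.33 to 10.33. All KO MSC and tumor libraries lay below all WT MSC libraries, while KO MSC and tumors overlapped. The tumor difference against WT MSC was -1.91 ± 0.42, a level 3.76-fold lower, with a limma adjusted p of 0.00913. The difference between KO and WT MSC was -1.44 ± 0.45 and did not pass the test (limma adjusted p of 0.551). It was -1.03 without the library labelled KO MSC 3.

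Zeb1, a zinc finger and homeobox repressor of Cdh1, was at 6.52, 7.37 and 7.38 in WT MSC and at 6.68, 6.56 and 5.85 in the libraries labelled KO MSC 1 to 3. Among tumors it was lowest at 7.48 in tumor 6 with a median of 7.86 and a highest value of 9.22 in tumor 4. Every tumor lay above every MSC library. Tumor 6 and WT MSC 3 came closest to each other. The tumor difference was 1.74 ± 0.48 against KO MSC and just missed the threshold (limma adjusted p of 0.0585). It was under the threshold in 5 of the 20 alternative analyses, between 0.0270 with all 12 libraries in 1 fit and 0.0434 in the other deposited table. Against WT MSC the difference was 1.02 ± 0.43 (limma adjusted p of 0.118).

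Zeb2, the relative of Zeb1, is also a factor of macrophages and other blood cells. It was at 9.60, 9.99 and 9.53 in WT MSC and at 9.13, 8.86 and 8.99 in the libraries labelled KO MSC 1 to 3. In tumors it lay between 8.75 and 9.26 with a median of 9.09. WT MSC lay above all other libraries, and the tumors covered the range of KO MSC. The SD over tumors was 0.19, and 10.7% of tested genes had a lower one. The tumor difference against WT MSC was -0.66 ± 0.26 and did not pass the test (limma adjusted p of 0.0955). Against KO MSC the difference was 0.05 ± 0.31, with a 95% interval from -0.62 to 0.73.

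Tcf4 encodes the E protein E2-2, a dimerization partner of tissue-specific helix-loop-helix factors such as the Twist proteins. It was at 9.03, 10.24 and 10.22 in WT MSC and at 8.37, 8.42 and 8.61 in the libraries labelled KO MSC 1 to 3. In tumors it ran from 9.79 in tumor 6 over a median of 10.19 to 12.04 in tumor 4. KO MSC lay below every other library, and WT MSC lay within or below the tumor range. The tumor difference against KO MSC was 2.07 ± 0.51, or 4.19-fold, with a limma adjusted p of 0.0397. Against WT MSC it was 0.70 ± 0.53 and did not pass (limma adjusted p of 0.361).

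Cdh1, the repressed target in EMT, was at or close to the floor in every library. It was at its floor in 7 of 12 libraries: WT MSC 2 and 3, the libraries labelled KO MSC 2 and 3 and tumors 3, 5 and 6. The floor of Cdh1 was 4.55 in batch 1 and 4.95 in batch 2, as the batch adjustment left it. The largest distance above the floor was 0.70, in tumor 4. Across groups the means were 5.01 ± 0.10 (SD, n = 3) in WT MSC, 5.05 ± 0.17 (SD, n = 3) in KO MSC and 5.05 ± 0.36 (SD, n = 6) in tumors. At this level a difference between the groups was not detectable, and the limma adjusted p lay between 0.888 and 1 in the 3 comparisons.

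Cdh2, N-cadherin, which joins mesenchymal and neural cells, was lower in the tumors than in wild-type stromal cells. It was at 10.65, 11.51 and 11.03 in WT MSC and at 9.14, 9.28 and 8.33 in the libraries labelled KO MSC 1 to 3. Tumors ran from 7.19 in tumor 5 over a median of 8.67 to 9.88 in tumor 1. All KO MSC and tumor libraries lay below all WT MSC libraries. The tumor difference against WT MSC was -2.32 ± 0.52, a level 5.01-fold lower, with a limma adjusted p of 0.0104. The KO MSC difference against WT MSC was -2.14 ± 0.42, a level 4.42-fold lower on average, and did not pass after adjustment (unadjusted p of 0.000922, limma adjusted p of 0.551). It was -1.85 without the library labelled KO MSC 3.

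Vim, the vimentin filament of mesenchymal cells and of macrophages and endothelium, was higher in the tumors than in KO MSC. It was at 10.61, 12.89 and 11.98 in WT MSC and at 9.76, 10.91 and 10.13 in the libraries labelled KO MSC 1 to 3. In tumors it ran from 12.75 in tumor 6 over a median of 13.76 to 15.97 in tumor 4. Every tumor lay above every KO MSC library, and WT MSC 2 lay above tumor 6. The tumor difference against KO MSC was 3.78 ± 0.68, or 13.7-fold, with a limma adjusted p of 0.0120. Against WT MSC it was 2.22 ± 0.74, with a limma adjusted p of 0.0550, just above the threshold.

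**Figure D1:**
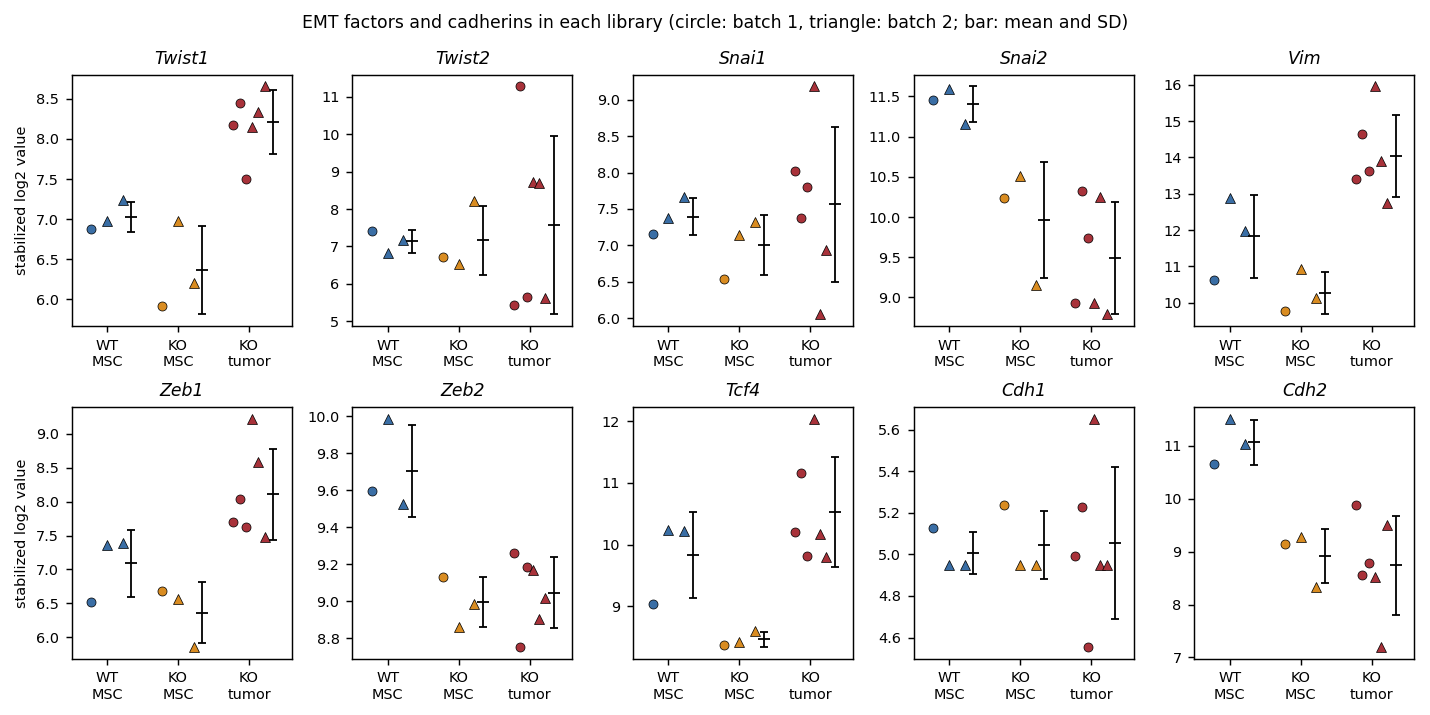
Stabilized log2 value (vertical axis, a separate scale for each gene) of the 10 genes in each of 12 libraries, by group; circles are batch 1 and triangles batch 2, and the bar beside each group is its mean and SD. All 6 tumors lie above all MSC libraries for Twist1 and Zeb1, all WT MSC libraries lie above all others for Snai2, Zeb2 and Cdh2, and the tumors fall into a high and a low set of 3 for Twist2.

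The first comparison was of the libraries labelled KO MSC with WT MSC. Trp53 was at the wild-type level in the libraries labelled KO MSC 1 and 2, so the comparison is of the labels and may not be one of p53 loss. No gene passed the test: 0 of 18948 genes had a limma adjusted p under 0.05 (percent called 0), and 0 of the 10 did. Without adjustment, 1637 genes (8.64%) had a p under 0.05, among them 4 of the 10, namely Cdh2, Snai2, Tcf4 and Vim. The difference was below 0 for 8 of the 10 genes. Their median difference was -0.72, beside -0.01 over all genes tested. For 4 of 10, Snai2, Zeb2, Tcf4 and Cdh2, all KO MSC libraries lay below all WT MSC libraries, which held for 8.93% of all genes. For 0 of 10 they lay above, which held for 6.31%. The differences of Tcf4 and Vim were -1.37 ± 0.43 and -1.56 ± 0.63. Those of Zeb1, Zeb2, Twist1 and Snai1 lay between -0.73 and -0.40, and those of Twist2 and Cdh1 were 0.03 and 0.04.

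Within batch 1 the comparison was of 1 library against 1, with no test, and within batch 2 of 2 against 2. Cdh2 differed by -1.51 in batch 1 and -2.46 in batch 2, Snai2 by -1.22 and -1.55, Tcf4 by -0.66 and -1.72, and Vim by -0.86 and -1.92. Zeb1 changed direction, with 0.15 in batch 1 and -1.17 in batch 2, as did Twist2, with -0.69 and 0.39. Of 15 genes of LepR+ stromal identity, all 15 had a difference below 0 with a median of -1.72, and 0 passed. Their part in the differences of the EMT genes was not tested.

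In tumors against KO MSC, both labelled as p53 knockout, Vim, Tcf4 and Twist1 rose and none of the 10 fell. Of 18948 genes tested 944 passed (4.98%), 512 higher (2.7%) and 432 lower (2.28%). Of the 10 genes 3 passed, all higher. The groups did not overlap, with tumors above, for 4 of 10, namely Twist1, Zeb1, Tcf4 and Vim, against 8% of all genes, and with tumors below for 0 of 10, against 5.39%. The median difference of the 10 was 0.49, beside 0.04 over all genes. The differences of Snai2 and Cdh2 were -0.47 ± 0.48 and -0.18 ± 0.54. Within batches 1 and 2 the difference was 4.13 and 3.69 for Vim, 2.02 and 2.16 for Tcf4 and 2.13 and 1.79 for Twist1. None of the 10 passed within a batch alone. Without the library labelled KO MSC 1, which had the fewest genes at the floor, the 3 calls were lost, at differences of 3.53 for Vim, 2.02 for Tcf4 and 1.62 for Twist1 and limma adjusted p of 0.0929, 0.175 and 0.153. The call of Tcf4 was also lost without any other KO MSC library or tumor 1, 2 or 5 (0.0527 to 0.121), and that of Twist1 without tumor 2, 5 or 6 (0.0539 to 0.0575).

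In tumors against WT MSC, Twist1 rose while Snai2 and Cdh2 fell. This comparison and the former share the tumor libraries and are not independent. Of 18948 genes 4033 passed (21.3%), 1970 higher (10.4%) and 2063 lower (10.9%). Of the 10 genes 3 passed, 1 higher and 2 lower. Tumors lay above all WT MSC libraries for Twist1 and Zeb1, 2 of 10, against 12.9% of all genes. They lay below for Snai2, Zeb2 and Cdh2, 3 of 10, against 12.3%. The median difference of the 10 was 0.30, beside -0.06 over all genes. Within batches 1 and 2 the difference was 1.16 and 1.28 for Twist1, -1.80 and -2.05 for Snai2 and -1.57 and -2.87 for Cdh2. Snai2 passed with each library left out in turn. The call of Twist1 was lost without WT MSC 1, 2 or 3 (0.0959, 0.0847 and 0.0601), and that of Cdh2 without WT MSC 2 (0.0558). Vim passed without tumor 6, with a difference of 2.48 and a limma adjusted p of 0.0463.

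**Figure D2:**
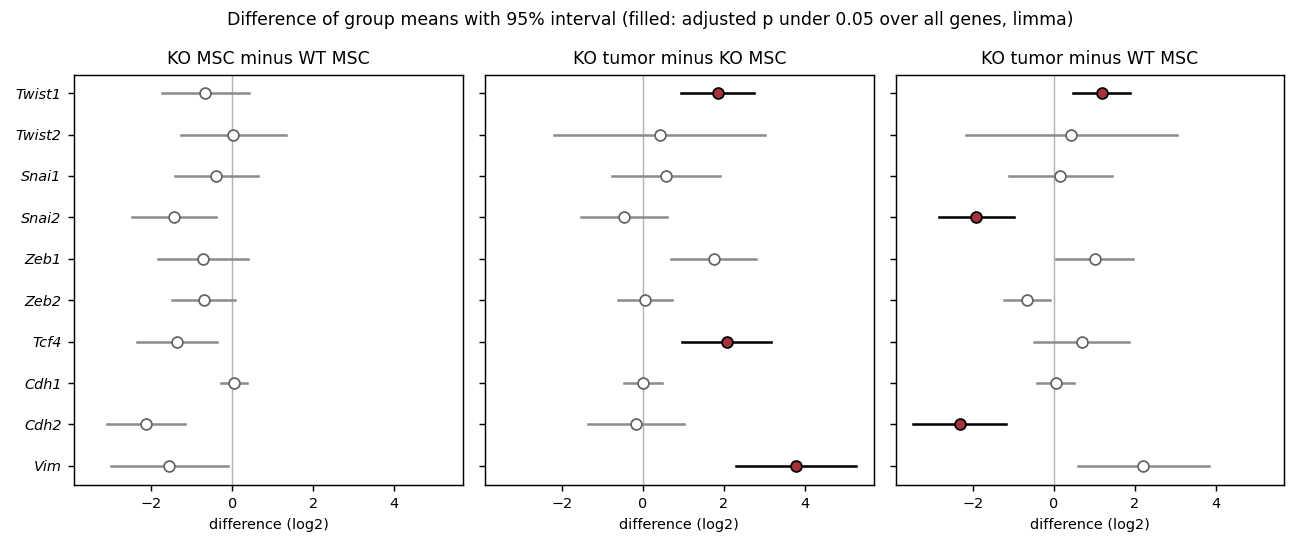
Difference of group means on the log2 scale (horizontal axis) with its 95% interval for each of the 10 genes in the 3 comparisons; filled points passed at an adjusted p under 0.05 over all genes (limma). No point is filled for KO against WT MSC, Twist1, Tcf4 and Vim are filled to the right for tumors against KO MSC, and Twist1 to the right and Snai2 and Cdh2 to the left for tumors against WT MSC.

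The tumors differed among themselves in these genes. The SD over the 6 tumors was 1.12 for Vim, 1.06 for Snai1, 0.93 for Cdh2 and 0.89 for Tcf4, against a median of 0.53 over all genes tested. It was 0.70 for Snai2, 0.67 for Zeb1, 0.40 for Twist1 and 0.36 for Cdh1. Tumor 4 held the highest value of 5 genes, Snai1, Zeb1, Tcf4, Cdh1 and Vim, and tumor 6 the lowest of 4, Snai2, Zeb1, Tcf4 and Vim. Tumor 5 was lowest in both Snai1 and Cdh2. As deviations from the group mean over the 12 libraries, the values of Tcf4 and Vim had a Pearson correlation of 0.90, those of Zeb1 and Vim 0.79 and those of Zeb1 and Tcf4 0.75. These are descriptions, since the points share libraries and tumor 4 was the highest in all 3 genes.

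**Figure D3:**
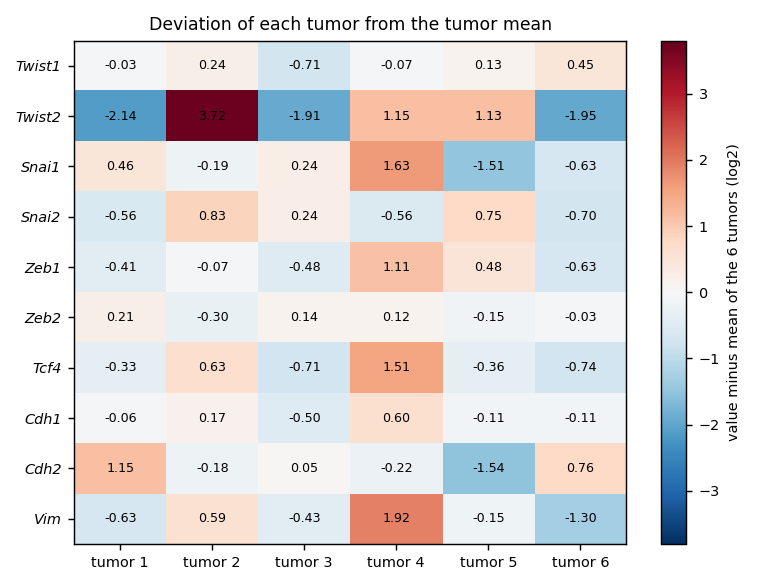
Value of each tumor minus the mean of the 6 tumors (log2 scale, red above and blue below the mean) for the 10 genes in rows and tumors 1 to 6 in columns. Twist2 spans -2.14 in tumor 1 to 3.72 in tumor 2, and tumor 4 is 1.92 above the mean in Vim, 1.51 in Tcf4 and 1.63 in Snai1.

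Macrophage and endothelial markers were higher in the tumor libraries than in the sorted cells, to unequal extents. The sort itself had excluded cells with CD45 and CD31, which are encoded by Ptprc of the macrophage list and Pecam1 of the endothelial list. The summed level of 12 macrophage markers, on a log2 scale, was 9.39 to 10.48 in WT MSC, 9.75 to 10.36 in KO MSC and 15.12 to 18.34 in tumors. Each such sum adds unlogged values, so the highest genes of a list weigh most. Against KO MSC 10 of the 12 rose, and against WT MSC 11 of 12. Between 1 and 8 of the 12 were at the floor in an MSC library and 0 in any tumor. In tumors 1 to 6 the sum was 15.12, 15.37, 15.26, 18.34, 17.17 and 16.12, highest in tumor 4, which was also highest in Vim and Tcf4. Tumor 2 was the next highest in both genes, at 14.64 for Vim and 11.16 for Tcf4, and the fourth highest in the sum. Tumor 6 was the lowest in both genes and the third highest in the sum. The sum of 10 endothelial markers was 9.19 to 9.48 in WT MSC, 9.54 to 9.89 in KO MSC and 10.77 to 12.77 in tumors, where 4 of 10 rose against KO MSC and 8 of 10 against WT MSC. That of 10 skeletal muscle markers was 8.32 to 8.71 in WT MSC and at a median of 8.62 in KO MSC. The muscle sum was 19.52 in tumor 4, 14.45 in tumor 3 and 8.40 to 11.10 in the other tumors. In tumor 4 Acta1 alone was at 19.28. Of the muscle markers 0 of 10 passed in either comparison. The part of these cells in the levels of Vim, Tcf4, Zeb1 and Twist1 was not tested. In bulk RNA, fewer cells of a type and less RNA per cell cannot be told apart.

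Markers of blood cells were also measured in the sorted cells. The sum of 9 neutrophil and granulocyte markers was 11.34 to 14.85 in WT MSC, 12.01 to 17.39 in KO MSC, with the highest value in the library labelled KO MSC 1, and 9.13 to 12.50 in tumors. Of these markers 6 of 9 fell in tumors against KO MSC and 3 of 9 against WT MSC. The sum of 10 erythroid markers was 15.54 to 17.96 in WT MSC, 16.45 to 17.58 in KO MSC and 14.63 to 18.76 in tumors, where 4 of 10 fell in each comparison. Lymphocyte markers summed to 8.40 to 9.37, 8.23 to 10.77 and 9.22 to 12.47, and 2 of 9 rose in each. The sum of 15 genes of LepR+ stromal identity was 17.83 to 20.16 in WT MSC, 17.61 to 18.41 in KO MSC and 11.21 to 13.95 in tumors. Cxcl12 weighed most in this sum in MSC libraries, at 17.15 to 19.89 in WT MSC and 17.29 to 18.08 in KO MSC. The mean of the 15 log2 values was 11.75 to 12.78 in WT MSC, 10.33 to 11.25 in KO MSC and 6.72 to 8.73 in tumors. The 15 include Lepr and Pdgfra, the genes of the sort markers LepR and CD140a, so the sort itself selected MSCs for them. Of the 15, 8 fell against KO MSC. Against WT MSC 14 of the 15 fell, as did Snai2 and Cdh2, which did not pass against KO MSC. The part of these lists in the results was not tested.

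**Figure D4:**
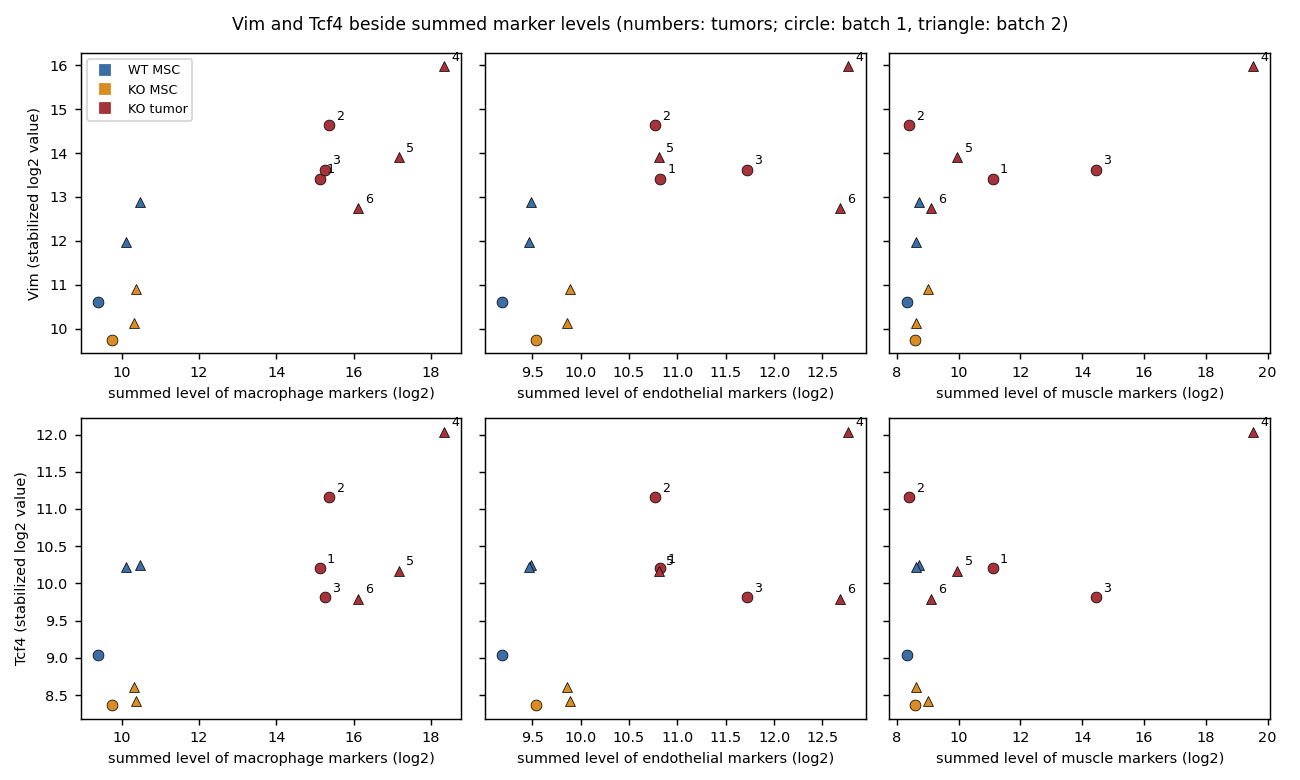
Stabilized log2 value of Vim (top) and Tcf4 (bottom) against the summed level of 12 macrophage, 10 endothelial and 10 muscle markers (log2) in each library; numbers name the tumors, circles are batch 1 and triangles batch 2. All tumors lie to the right of all MSC libraries for macrophage and endothelial markers, tumor 4 lies highest on both axes in every panel, and tumor 2 has high Vim and Tcf4 with muscle markers at 8.40.

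Among the partners and inhibitors of the helix-loop-helix factors, Id4 fell in tumors against both groups of stromal cells. The Id proteins bind E proteins and keep them off DNA. Of 6 E protein and Id genes, 0 passed for KO against WT MSC. Against KO MSC, 0 rose and 1 fell, Id4, by 3.45 ± 0.58 on the log2 scale (limma adjusted p of 0.00913). Against WT MSC, Id2 and Id1 rose by 3.10 ± 0.51 and 2.72 ± 0.47, and Id4 and the E protein gene Tcf3 fell by 4.22 ± 0.59 and 1.87 ± 0.43 (limma adjusted p of 0.00270, 0.00338, 0.00159 and 0.0118). Id4 was at 9.08 to 11.39 in WT MSC, 8.28 to 9.88 in KO MSC and 4.71 to 6.68 in tumors, so that no tumor reached the lowest MSC library. Id2 was at 6.56 to 7.70 in WT MSC, 7.68 to 9.37 in KO MSC and 9.02 to 11.59 in tumors. The call of Tcf3 was lost without WT MSC 1 or 3 (0.0515 and 0.0641), and that of Id4 against KO MSC without the library labelled KO MSC 1 (0.0801).

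Among 13 other EMT-linked factors and corepressors, 0 passed for KO against WT MSC and 1 rose against KO MSC. The gene that rose was Ctbp2, a corepressor that Zeb factors recruit (1.68 ± 0.43, limma adjusted p of 0.0458), and its call was lost with each of the 9 libraries left out in turn (0.0524 to 0.196).

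The other cadherins and catenins include further adhesion genes of mesenchyme and vessels. Of 10 tested, 0 passed for KO against WT MSC, 1 rose against KO MSC, and 1 rose and 4 fell against WT MSC. Cdh11, the cadherin of osteoblasts and other mesenchyme, fell by 3.23 ± 0.62 against WT MSC (limma adjusted p of 0.00533), beside the fall of Cdh2. It was at 12.68 to 13.58 in WT MSC, 10.43 to 11.47 in KO MSC and 8.49 to 11.94 in tumors. Jup, plakoglobin, fell by 3.05 ± 0.64, Ctnnd1, p120 catenin, by 1.98, and Cdh4 by 0.93, with Cdh4 near the floor (limma adjusted p of 0.00760, 0.0198 and 0.0137). The call of Ctnnd1 was lost without WT MSC 2 or 3 (0.0987 and 0.0806), and that of Cdh4 without WT MSC 1 or 3 (0.0715 and 0.0505). Cdh5, the cadherin of endothelium, rose by 2.93 ± 0.49 against KO MSC and by 2.97 ± 0.45 against WT MSC (limma adjusted p of 0.00913 and 0.00203). It was at or near the floor in MSC libraries, 4.28 to 5.60, and at 7.24 to 8.84 in tumors, where the endothelial marker sum was also higher. Its call against KO MSC was lost without the library labelled KO MSC 1 (0.0694).

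Among 8 other intermediate filament genes, 0 passed for KO against WT MSC, 1 rose against KO MSC, and 1 rose and 1 fell against WT MSC. Nes, nestin, a filament of progenitor, muscle and vascular cells, rose by 2.95 ± 0.58 against KO MSC and by 2.70 ± 0.55 against WT MSC (limma adjusted p of 0.0177 and 0.00681). It lay between 5.22 and 6.06 in MSC libraries and between 7.41 and 9.81 in tumors and, as for Vim, every tumor lay above every KO MSC library. The call against KO MSC was lost without the library labelled KO MSC 1 or 2 (0.106 and 0.0559). The gene that fell was Gfap, which was at its floor in all tumors. Its group means were 5.53 in WT MSC and 4.75 in tumors, and the call was lost without WT MSC 1 or 3 (0.119 and 0.116).

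TGF-beta signals through Smad proteins to induce the Snail and Zeb factors in epithelia. Of 8 ligand, receptor and Smad genes, 0 passed for KO against WT MSC, with 7 of 8 differences below 0 and a median of -1.09. Against KO MSC all 8 differences were above 0 with a median of 1.33, and 1 passed, Tgfb2, which rose by 2.52 ± 0.50 (limma adjusted p of 0.0188). Tgfb2 was at 6.64, 8.42 and 7.88 in WT MSC, at 5.92, 4.85 and 4.85 in the libraries labelled KO MSC 1 to 3 and between 6.47 and 8.24 in tumors. KO MSC lay below both other groups, which overlapped, as was also so for Tcf4. Tgfb2 was at its floor in the libraries labelled KO MSC 2 and 3, while Tcf4 was at a floor in no library. Against WT MSC 1 of 8 passed, Tgfb3, which fell by 2.91 ± 0.88 (limma adjusted p of 0.0376). The call of Tgfb2 was lost without the library labelled KO MSC 1 or 2 (0.0579 and 0.0752), and that of Tgfb3 without any WT MSC library or tumors 2, 3 or 6 (0.0502 to 0.146).

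Epithelial genes stayed low beside Cdh1. Of 30 epithelial genes, 10 factors and 20 junction and keratin genes, 26 were never above a value of 7 in any library. The number at the floor ran from 5 in the library labelled KO MSC 1 to 30 in that labelled KO MSC 3 and from 18 to 24 in tumors. Grhl3, Krt5 and Rab25 were at the floor in all 12. Of the 8 factors tested 0 passed in any comparison. Of the 17 junction and keratin genes tested, 0 passed for KO against WT MSC or for tumors against KO MSC and 2 fell against WT MSC. These were Dsc2 and Ocln, by 0.81 and 0.53 (limma adjusted p of 0.0267 and 0.0340), both near the floor. The call of Dsc2 was lost without any WT MSC library or tumor 3 or 6 (up to 0.0961), and that of Ocln without WT MSC 1 or 3 or tumor 1, 2 or 3 (up to 0.138). Tumor 5 stood out among tumors in 3 genes, named after their values were seen. In it Cldn3, a tight junction claudin, was at 11.41, Elf3, an epithelial factor, at 9.35 and Krt19, a simple-epithelium keratin, at 8.13, while Cdh1 was at its floor. The same tumor held the lowest Snai1 and Cdh2. Tumor 4 held Klf5, the other gene above 7, at 7.06, and was highest in Krt18 at 6.83 and Krt8 at 6.25.

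**Figure D5:**
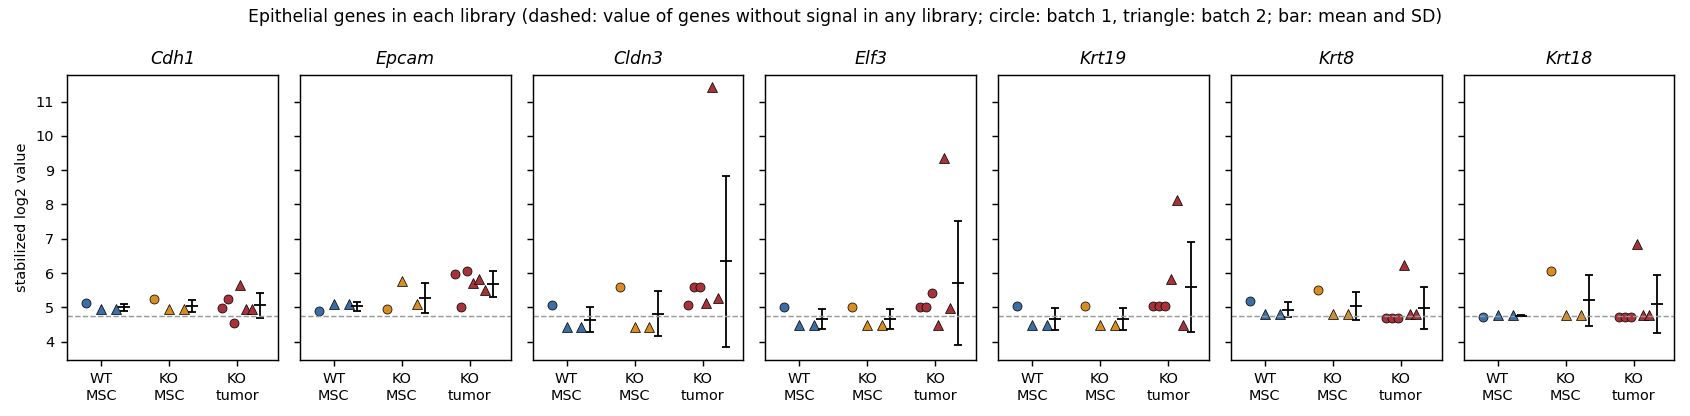
Stabilized log2 value (vertical axis, shared) of Cdh1 and 6 other epithelial genes in each library by group; circles are batch 1, triangles batch 2, bars mean and SD, and the dashed line is the value of genes without signal in any library, 4.75. Cdh1 stays between 4.55 and 5.65 in all libraries, and tumor 5 stands alone with Cldn3 at 11.41, Elf3 at 9.35 and Krt19 at 8.13. Tumor 4 is highest in Krt8 at 6.25 and Krt18 at 6.83.

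Genes with the most similar pattern were sought among 10078 tested genes with a mean of at least 6.64 (log2 of 100), by the Pearson correlation over the 12 libraries after removing group means. These are descriptions over shared libraries, and tumor 4 weighs in several. Vim was closest to Sulf2 (0.97), Elk3 (0.96) and Myof (0.96), and Tcf4 to Sulf2 (0.96), Elk3 (0.95) and Plec (0.94), so that both shared their leading neighbours. Twist2 was closest to Crabp1 (0.95), Lefty1 (0.94) and Eps8 (0.94), and Zeb1 to Ehd4 (0.95), Cdk11b (0.95) and Tacc2 (0.92). Cdh2 was closest to Mesdc2, Tbc1d20 and Acat2 (0.96, 0.96 and 0.95), and Snai1 to Itfg3, Slit3 and Pdk2 (0.95, 0.94 and 0.93). The remaining factors had less close neighbours, at most 0.90 for Snai2 (Zfp637) and for Zeb2 (Spg11) and 0.80 for Twist1 (Ugdh).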

How the data were processed

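RNA of 12 mouse libraries was sequenced, 3 of WT MSC, 3 of KO MSC and 6 of KO tumor, grouped by their labels. cDNA was made with a low-input kit (SMART-Seq v4) and the library kit was an unstranded one, per the labels' protocols. TopHat2 2.0.13, Cufflinks 2.2.1, Cuffdiff and build mm10 are named in the submitters' processing notes. For the steps from reads to table, and for the annotation, nothing further is stated. The authors deposited log2 values of 24421 genes, titled as variance-stabilized and batch-adjusted. Their other deposited table, titled as normalized counts, holds a score, namely 100 times the log2 value, rounded and scaled by 1 factor per library, for 18949 genes. No reads could be recovered, so no count test was possible.

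The test was limma 3.58.1, run in R 4.3.3 separately for the 2 groups of each comparison (eBayes with a trend, two-sided, no covariate, no pseudocount). Benjamini-Hochberg adjustment ran over the 18948 genes of the score table with more than 1 value. The threshold was an adjusted p of 0.05. The fit was checked on simulated data. Batches were read from floor values that libraries share exactly. In 8352 of 8352 genes the floors of both batches lay evenly around the common floor of 4.75 (tolerance 1e-05), and 1451 genes were constant there. Fits on adjusted values can give p-values that are too small. Alternatives were another scaling, filter, batch handling, block, prior or sample set and leaving out each library.

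The 10 genes and all lists were chosen with earlier results of these data known. All 10 genes, up to 4 genes of each pathway list with the smallest adjusted p and the 3 closest neighbours of each factor could be named, and the text names part of these. The lists held E protein and Id genes, other EMT-linked factors, epithelial factors, epithelial junction and keratin genes, other cadherins and catenins, other intermediate filaments, TGF-beta genes, LepR+ stromal identity, and markers of macrophages, endothelium, neutrophils, lymphocytes, erythroid cells and muscle. One result among the EMT-linked factors is not reported here.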

Additional observations from a re-analysis of the deposited data

Results flagged for a closer look

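Among 60 genes named here or fitting the rule for named genes, 10 had 1 tumor far from the other 5, with a gap to the nearest tumor that was large against the range of the 6. Chance gives about 1 in 20 such genes where values follow a normal distribution. That rate does not apply to 9 of the 10 genes, which were at the floor in at least 1 tumor. None of the 10 EMT genes was among them. In tumor 5 the gap was 0.996 of the range for Crb3, 0.917 for Cldn3, 0.808 for Elf3 and 0.626 for Krt19. Crb3 was close to the floor in tumor 5 too, at 5.47 over a floor of 4.75 in batch 2, while Cldn3 was at 11.41. In tumor 4 it was 0.982 for Krt18, 0.774 for Dsc2, 0.757 for Ctnna1 and 0.635 for Ovol1. For Ovol1, tumor 4 was at 5.54 over a floor of 5.04 in batch 2. Tumors 1 and 3 were at 5.09 and 5.13 over a floor of 4.47 in batch 1. The gap of Ovol1 thus holds the offset between the floors, and tumor 4 does not stand apart in it. The gap was 0.968 for Krt14 in tumor 6, which was at 5.77 over a floor of 4.74 in batch 2. Dsc2 in tumor 4 was at 5.68 over a floor of 4.63. For Esrp2 it was 0.753 in tumor 2, which was at the floor of batch 1 while tumors 4 to 6 were at the higher floor of batch 2, so that the gap is the offset between the floors and tumor 2 does not stand apart. Apart from Ctnna1, these genes were near the floor in most of the other tumors.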

How the results depend on the processing

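For KO against WT MSC, 0 genes and 0 of the 10 EMT genes passed in every alternative run. For tumors against KO MSC, the 944 genes of limma (512 higher, 432 lower) became 1481 with quantile scaling (520 higher, 961 lower), 1923 with all 12 libraries in 1 fit, 3277 in batch 1 alone (410 higher, 2867 lower), where the library labelled KO MSC 1 is the only one of its group, and 229 in batch 2 alone (120 higher, 109 lower). Of the 10 genes 0 passed in batch 1 alone and 0 in batch 2 alone. Leaving out 1 library gave 113 to 1627 genes and 0 to 3 of the 10. There were 113, 396 and 1627 genes without the libraries labelled KO MSC 1, 2 and 3, 597 without tumor 5 and 621 without tumor 6. Tcf4 did not pass without the filter (0.0517) or with a batch term (0.0603). For tumors against WT MSC, the 4033 genes (1970 higher, 2063 lower) became 775 in batch 2 alone and split into 349 higher and 2463 lower in batch 1 alone, with WT MSC 1 as the only WT MSC library, and 5 of the 10 EMT genes passed with quantile scaling, 0 in batch 1 alone and 0 in batch 2 alone. Leaving out 1 library gave 1856 to 4737 genes and 1 to 4 of the 10, with 1856, 2339 and 2268 genes without WT MSC 1, 2 and 3. Vim passed against WT MSC in the other deposited table (0.0462), with upper-quartile scaling (0.0357), a filter on the mean (0.0287) or all libraries in 1 fit (0.0392). With the run without tumor 6, it passed in 5 of the 20 alternatives. Over the 11 alternatives other than leaving out 1 library, its difference ran from 0.95 to 3.28, beside 2.22 in the main fit.

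Every direction that reversed belonged to a difference that had not passed the test. Against KO MSC, batch 1 alone gave -0.066 for Zeb2 and -0.31 for Cdh1. Against WT MSC, batch 1 alone gave -0.20 for Cdh1 and batch 2 alone -0.13 for Snai1. For KO against WT MSC, batch 1 gave 0.15 for Zeb1 and -0.69 for Twist2. With 1 library left out, Twist2 ranged from -0.50 to 0.33 and Cdh1 from -0.059 to 0.10 for KO against WT MSC. Against KO MSC, Twist2 ranged from -0.33 to 0.93, Zeb2 from -0.012 to 0.12, Cdh1 from -0.11 to 0.11 and Cdh2 from -0.47 to 0.13. Against WT MSC, Twist2 ranged from -0.31 to 0.86, Snai1 from -0.16 to 0.47 and Cdh1 from -0.073 to 0.15. The causes of these changes were not tested, beyond the smaller number of libraries.

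The labels do not state whether replicate numbers pair the libraries. The correlations of same-numbered deviations were 0.24, 0.15 and -0.15 between KO and WT MSC. They were -0.22, -0.07 and 0.22 between tumors and KO MSC and -0.32, -0.09 and 0.01 between tumors and WT MSC. Differently numbered libraries of KO and WT MSC ran from -0.32 to 0.30. With so few libraries and a spread as wide, these correlations cannot decide on pairing. With the replicate number as a block, which uses 3 tumors, 34 genes and 0 of the 10 passed against KO MSC and 1445 and 0 of the 10 against WT MSC. The block gave -0.12 for Cdh1 and 0.16 for Cdh2 against KO MSC and -0.083 for Cdh1 against WT MSC. Depth is unknown, so the limit of detection for Cdh1 and other genes at the floor cannot be given.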
